A study of Gallus gallus with 28 samples.

Results

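SLC35A3, SLC35F1 and SLC35G2 are 3 genes of the SLC35 family whose transcripts moved in opposite directions in the intestine of male chicks between late incubation and the end of the second week after hatch. They were chosen from a deposited array series because their log2 values differed strongly between embryonic day 18 and day 14 after hatch, upward in SLC35A3 and downward in SLC35F1 and SLC35G2. They are 3 of 13009 named genes on the array. The probe gene annotation of the array gives them 9 probe sets, 2 for SLC35A3 (gene ID 424472), 4 for SLC35F1 (gene ID 770279) and 3 for SLC35G2 (gene ID 424738), of 38535 in the table. It gives 56 probe sets to 24 symbols of the family in all, and the other 21 genes served as background. In the RefSeq gene table for assembly GRCg7b all 24 kept their symbols, with SLC35A2 as a synonym of SLC35A3 and TMEM22 as one of SLC35G2.

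The series holds total RNA of 28 arrays, 4 at each of 7 ages. Samples were taken from embryos of 18 days (e18) and of 20 days (e20), at hatch (hatch), and at post-hatch days 1 (d1), 3 (d3), 7 (d7) and 14 (d14). All arrays are from untreated male birds, each age is represented by segments of gut from 6 birds, and the tissue label reads whole intestine. The design text names 2 lines, A and B, and 2 pools. No array is assigned to either in the labels, so the spread between the 4 arrays of an age holds any such difference and may also be technical in part.

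Proteins of the SLC35 family are nucleotide sugar transporters and their relatives, membrane proteins of the Golgi apparatus and endoplasmic reticulum within the drug/metabolite transporter superfamily. Sugars are activated in the cytosol or nucleus as nucleotide sugars, and a carrier brings them into the Golgi lumen in exchange for the nucleoside monophosphate left after glycosyltransferases have used the sugar. SLC35A3 is known in mammals as the Golgi carrier of UDP-N-acetylglucosamine (UDP-GlcNAc), the donor for branches of N-glycans and for the chains of mucin O-glycans and keratan sulfate. SLC35F1 and SLC35G2 are orphan members with no settled substrate, and SLC35F1 is best known from brain, where it is found in neurons. The intestine holds glycoprotein-rich epithelium, goblet cells that secrete mucin, and a nervous system of its own in the wall.

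Values are log2 intensities, and the number of arrays limits their precision. Medians of the 28 arrays ran from 7.39 to 8.00 in linear intensity. As background each array was given the 95th percentile of its 541 probe sets named NC-, from 2.97 to 3.54 in log2 units across arrays. Between arrays of one age the correlation across genes was at least 0.978, and no 2 arrays were identical. The e18 arrays stood apart in pancreatic transcripts. The mean level of 11 exocrine pancreas genes was between 10.23 and 10.61 on the e18 arrays and at most 7.10 on any other array, and the part of this in the e18 levels was not tested. Of the defining enterocyte markers, VIL1, FABP2 and APOA4 were above background, as were the smooth muscle markers ACTG2 and MYH11, so epithelium and muscle wall were both in the samples. In such tissue RNA, fewer cells of a type and less RNA per cell cannot be told apart.

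SLC35A3 rose steeply before hatch, more slowly up to d7 and was level after that. Its brighter probe set read 5.50, 5.24, 4.31 and 4.38 in the 4 arrays at e18. At e20 the arrays read 7.21, 7.29, 6.39 and 6.74. No e20 array was as low as any e18 array. Between these ages limma called 54.2% of all genes tested, and from e20 to hatch 43.3%. The share of all genes without overlap between ages was not computed, here or for SLC35F1 and SLC35G2 below. At hatch the values were 7.43, 8.18, 8.09 and 8.09, again all above those of the age before. By d1 they were 8.39, 8.62, 8.42 and 8.00, and from here on neighbouring ages overlapped. The d3 arrays lay at 8.59, 9.33, 9.02 and 8.98. The d7 arrays lay at 9.50, 9.15, 9.09 and 9.45, and those of d14 at 9.55, 9.61, 9.10 and 8.96, so that the last 2 ages shared the same range.

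In means, SLC35A3 went from 4.86 ± 0.60 (SD, n = 4 arrays) at e18 to 9.31 ± 0.32 at d14, a difference of 4.45 that was used to choose the gene and is given without a test. Called differences between these ages were common, at 73.7% of all genes tested, and nothing is read from this for genes chosen on it. Of the 8396 genes that passed the filter on low values, 114 had a larger rise. By e20 the mean had covered 46.1% of this log2 difference, by hatch 69.5%, by d3 92.7% and by d7 99.8%. The ages d7 and d14 differed by 0.01. The annotation gives the gene a second probe set, which had age means between 2.90 and 3.16, was above background on 1 of 28 arrays and so gives no second measurement.

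SLC35F1 fell through the whole series, apart from a plateau between hatch and d1. Its brightest probe set read 6.82, 6.47, 7.33 and 6.87 at e18. The e20 arrays read 6.23, 6.05, 6.34 and 6.31, below all of those at e18. At hatch the values were 5.54, 5.34, 5.46 and 4.94, again with no overlap. On d1 they were 5.58, 5.74, 6.00 and 5.24, within or above the range at hatch. On d3 they had dropped to 5.23, 4.27, 3.86 and 4.50, all below d1. Limma called 54.2% of all genes tested between e18 and e20, 43.3% between e20 and hatch and 25.7% between d1 and d3. The share of all genes without overlap was not computed. The d7 arrays lay at 3.72, 3.47, 3.66 and 4.43 and those of d14 at 3.76, 3.01, 3.39 and 3.39. By then the gene was close to background, and 1 of the 4 d14 arrays was below it.

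The mean of SLC35F1 was 6.87 ± 0.36 (SD, n = 4 arrays) at e18 and 3.39 ± 0.31 at d14, a difference of −3.48 given without a test, and 102 of the 8396 genes had a larger fall. Only 18.4% of it was reached by e20, 44.6% by hatch, 69.1% by d3 and 87.6% by d7. A second probe set also fell, at a lower level. Its means were 6.44 at e18, 5.23 at e20, 4.27 at hatch, 4.48 at d1, 3.73 at d3 and 3.13 at d7. From e18 to e20 it changed by −1.21, against −0.64 in the brightest probe set. The part of the fall before e20 thus depended on the probe set. At d14, with a mean of 2.65, the second probe set was not above background on any array. The plateau between hatch and d1 was present in both probe sets. The other probe sets of the gene were above background on 0 and 2 of 28 arrays.

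SLC35G2 fell most before hatch, held level from d1 to d3 and then fell further. Its brightest probe set read 7.80, 8.10, 7.72 and 7.75 at e18. The e20 arrays read 6.55, 6.29, 7.01 and 6.75, all below e18. The hatch arrays read 6.05, 5.93, 5.90 and 5.60, all below e20. On d1 the values were 5.37, 5.44, 5.58 and 5.38, and on d3 they were 5.74, 5.62, 5.28 and 5.62, so these ages overlapped. On d7 they were 4.89, 4.73, 5.10 and 5.08, below every d3 array. Limma called 54.2% of all genes tested between e18 and e20, 43.3% between e20 and hatch and 13.5% between d3 and d7. The share of all genes without overlap was not computed. The d14 arrays spread more widely, at 3.96, 4.79, 4.67 and 5.23, across the range of d7.

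The mean of SLC35G2 was 7.84 ± 0.17 (SD, n = 4 arrays) at e18 and 4.66 ± 0.52 at d14, a difference of −3.18 given without a test, and 147 genes had a larger fall. It had covered 37.5% of the difference by e20, 62.0% by hatch and 75.4% by d1. A second probe set stayed above background on every array. It put more of the fall before e20, with means of 6.64 at e18, 4.97 at e20, 4.51 at hatch, 4.61 at d1, 4.64 at d3, 4.13 at d7 and 3.79 at d14. The third was above background on all e18 arrays, at a mean of 3.42, on 1 of 4 at e20 and on none after that.

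**Figure D1:**
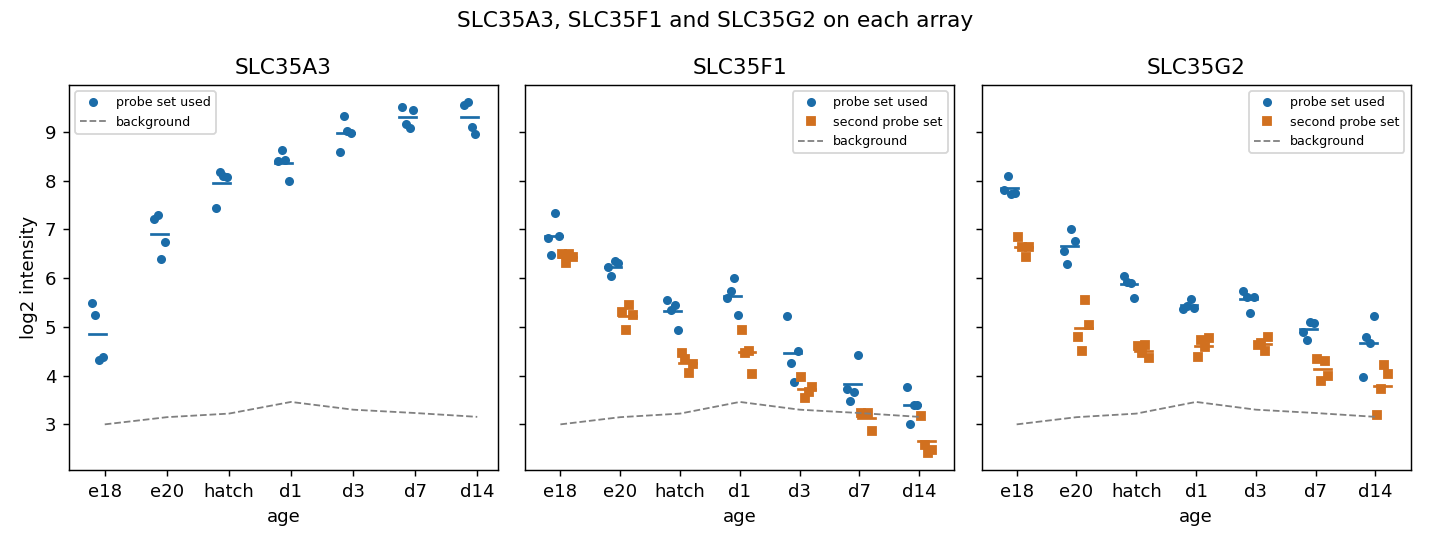
Log2 intensity (vertical axis) of SLC35A3, SLC35F1 and SLC35G2 on each of 4 arrays per age (horizontal axis), with 1 colour for the probe set used and another for a second one where it was above background on most arrays, a short line at each mean and the mean background dashed. SLC35A3 rises from 4.86 at e18 to 9.31 at d14, and both probe sets of SLC35F1 and of SLC35G2 fall.

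The genes are defined by their log2 values over the 7 ages and were picked for opposite directions. The difference of each gene between e20 and d7 is therefore a description and has no test. SLC35A3 was higher at d7 than at e20 by 2.39 ± 0.25 (SE), or 5.24-fold. SLC35F1 and SLC35G2 differed by −2.41 ± 0.24 and −1.70 ± 0.18. In each gene the 4 arrays of one age lay apart from the 4 of the other. The share of all genes that lay apart in this way was not computed, and 64.0% of all genes were called between these ages. With the second probe sets, a setting chosen after seeing the data, SLC35F1 changed by −2.10 and SLC35G2 by −0.84, so the size for SLC35G2 depended on the probe set. The adjusted p-values of single steps below set each step against the spread between arrays, and because of the choice of genes they are no independent support for a direction.

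By single steps, all 3 genes were called from e20 to hatch, a description only, as they were picked for their directions. SLC35A3 rose by 1.04 ± 0.25 (limma adjusted p = 0.00166), SLC35F1 changed by −0.91 ± 0.24 (adjusted p = 0.00382) and SLC35G2 by −0.78 ± 0.18 (adjusted p = 0.00142), in a step where 43.3% of all genes were called, 19.2% higher and 24.1% lower. With its second probe set SLC35G2 changed by −0.46 in this step and was not called (adjusted p = 0.0511). From hatch to d1, where 35.2% of genes were called, 12.5% higher and 22.7% lower, none of the 3 was. The differences were 0.41 for SLC35A3 (adjusted p = 0.212), 0.32 for SLC35F1 (adjusted p = 0.323) and −0.43 for SLC35G2 (adjusted p = 0.0745). Without hatch replicate 4, d14 replicate 1 or d14 replicate 4, SLC35G2 was called in that step (adjusted p = 0.0484, 0.0253 and 0.0432). Without either d14 array the difference stayed at −0.43, as d14 enters this step only through the joint fit.

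The calls in the later steps are a description only too, as the genes were picked for their directions. From d1 to d3 SLC35F1 changed by −1.18 ± 0.24 (limma adjusted p = 0.000852), 2.26-fold lower. In this step 25.7% of genes were called, 15.0% higher and 10.7% lower. With its second probe set the change was −0.75 (adjusted p = 0.00157). SLC35G2 did not pass the test there, with a difference of 0.12 (adjusted p = 0.690), nor did SLC35A3, at 0.62 (adjusted p = 0.0689). SLC35A3 passed it without e18 replicate 1 (adjusted p = 0.0485), without d3 replicate 1 (adjusted p = 0.0428), without all e18 arrays (adjusted p = 0.0345) or with log2(value + 16) (adjusted p = 0.0353). Leaving out e18 arrays kept the difference at 0.62. From d3 to d7, where 13.5% of genes were called, 5.07% higher and 8.38% lower, SLC35G2 changed by −0.61 ± 0.18 (adjusted p = 0.0272). That call was lost without d3 replicate 1 (adjusted p = 0.0933), d3 replicate 2 (0.0595), d3 replicate 4 (0.0519), d7 replicate 1 (0.0578) or d7 replicate 2 (0.0659), and with the second probe set (0.0719). SLC35F1 was lower by 0.64 at d7 than at d3 and was not called (adjusted p = 0.0804). It was called without d3 replicate 3 (adjusted p = 0.0276) or d7 replicate 4 (adjusted p = 0.0337), and with its second probe set (adjusted p = 0.0165). SLC35A3 differed by 0.32 (adjusted p = 0.447).

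Whether the genes that fell did so by the same amounts was tested on the difference of their log2 values within each array. From hatch to d1 SLC35F1 went up by 0.32 and SLC35G2 down by 0.43, a difference in change of 0.75 ± 0.13 (SE, n = 4 and 4 arrays, exact permutation test, two-sided, p = 0.0286). From d1 to d3 the difference in change was −1.30 ± 0.24 (exact permutation p = 0.0286). Both are the smallest p that 70 splits of 4 against 4 arrays can give. With only these of the 5 comparisons at that p, the adjusted exact p was 0.0714 and could be no lower. That neither passed after adjustment was thus fixed by the number of arrays and decides nothing. From e20 to d7 SLC35F1 changed by 0.71 more than SLC35G2 (exact permutation p = 0.0571, adjusted 0.0952). The steps from e20 to hatch and from d3 to d7 had differences of −0.13 ± 0.10 and −0.03 ± 0.27 (adjusted exact p = 0.357 and 0.886). Without d7 replicate 4 the comparisons from e20 to d7, hatch to d1 and d1 to d3 each had an adjusted exact p of 0.0476. The comparisons from hatch to d1 and d1 to d3 hold no d7 array. Their differences stayed at 0.75 and −1.30, and only the adjustment moved. With the second probe sets of both genes the difference from hatch to d1 was 0.11 (adjusted exact p = 0.800), because that of SLC35G2 went up by 0.10, and the difference from d1 to d3 was −0.77 (adjusted exact p = 0.0952).

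Over the 28 arrays, SLC35F1 and SLC35G2 had a Pearson r of 0.87 with each other, and SLC35A3 had −0.87 with SLC35F1 and −0.95 with SLC35G2. These values describe the choice of genes, and the arrays share the 7 ages. Within ages, after each age mean was taken off, r was 0.15, −0.28 and −0.31 in the same order. The 2 probe sets of SLC35G2 had 0.94 over all arrays and 0.72 within ages, and those of SLC35F1 0.95 and 0.33. Differences between arrays of one age were thus shared by both probe sets of SLC35G2 more than by those of SLC35F1. The names of the SLC35G2 pair differ only in their ending, so the pair may not be independent measurements. The second SLC35F1 probe set was above background on 1 of 4 arrays at d7 and 0 of 4 at d14. The part of either in these values was not tested.

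**Figure D2:**
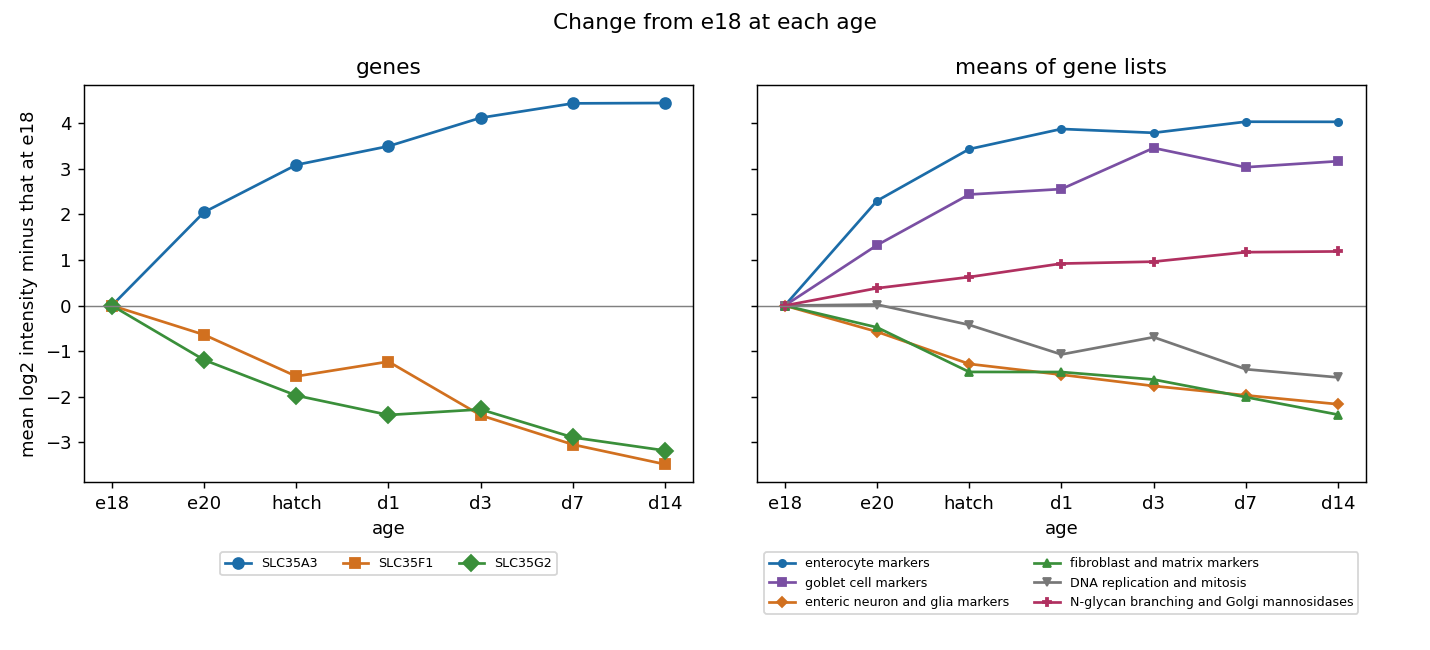
Mean log2 intensity minus the mean at e18 (vertical axis) at each age (horizontal axis), on the left for the 3 genes and on the right for the mean of 6 gene lists. SLC35A3 is at 3.09 by hatch, SLC35F1 and SLC35G2 are at −1.55 and −1.97, and enterocyte and goblet cell markers rise while neuron, fibroblast and replication genes fall.

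The other SLC35 genes that passed the filter spread from 2.41 to −1.39 between e18 and d14. The 3 genes were chosen for large changes between these ages, so their wider spread follows from the choice. Of the 21, 15 passed the filter, and between e18 and d14 limma called 9 of them, 6 higher and 3 lower at d14, where 33.2% of all genes were higher and 40.5% lower. With no filter, which brings in all 21, 10 were called higher, and the share of all genes called higher was not computed there. The 6 genes brought in were above background on at most 8 of 28 arrays, so nothing is read from that count. The median change of the 15 was 0.18, against −0.07 over all 8396 genes. Without e18 replicate 1 or without d14 replicate 1, only 1 of the other SLC35 genes was called lower. The moderated F-test over all ages called 11 of the 15, where 90.1% of all genes were called. SLC35B2, SLC35B3, SLC35E2B and SLC35F6 were not called.

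The largest rise among these was that of SLC35F5, an orphan member, from 6.60 ± 0.26 (SD, n = 4 arrays) at e18 to 9.02 ± 0.14 at d14 (2.41 ± 0.21, SE, limma adjusted p = 2.65e-10). Its course differed from that of SLC35A3 at the start, since it fell by 0.69 from e18 to e20 (adjusted p = 0.00916), a step in which 54.2% of all genes were called, 29.2% higher and 25.0% lower, and rose by 1.84 from e20 to hatch (adjusted p = 5.02e-07). SLC35E1, another orphan, rose by 2.19 ± 0.16 (adjusted p = 7.89e-12), with array values of 5.02 to 6.04 at e18 and 7.68 to 7.92 at d14. Its second probe set, above background on all 28 arrays at a lower level, went the other way, from 4.63 to 4.11, so the direction of SLC35E1 depended on the probe set. SLC35D1, a carrier of UDP-glucuronic acid and UDP-N-acetylgalactosamine in the endoplasmic reticulum, rose by 1.12 ± 0.13 (adjusted p = 2.13e-08). It was level before hatch, at 6.93 and 6.88, and stood at 7.79 by hatch.

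SLC35A1 and SLC35C1 rose by less. SLC35A1, the carrier of CMP-sialic acid, rose by 0.76 ± 0.12 (adjusted p = 6.30e-06) and SLC35C1, the carrier of GDP-fucose, by 0.47 ± 0.12 (adjusted p = 0.00116). SLC35E3 was the other gene called higher, at 0.32. The genes called lower were SLC35F3, SLC35C2 and SLC35B2, the last a carrier of the sulfate donor PAPS. SLC35F3 changed by −1.39 ± 0.23 (adjusted p = 7.25e-06), from 4.87 to 3.48, with 3 of 4 arrays above background at d14. SLC35C2 and SLC35B2 changed by −0.45 and −0.33 (adjusted p = 0.0168 and 0.0262).

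The smallest of these changes lay near the threshold, and single arrays decided their calls. SLC35C2 changed by −0.30 to −0.39 and was not called without e18 replicate 1 (adjusted p = 0.0604), d14 replicate 1 (0.102) or d14 replicate 2 (0.0533), nor against e20 (0.513). SLC35B2 changed by −0.21 to −0.31 and was not called without e18 replicate 1 (adjusted p = 0.140), e18 replicate 4 (0.0633), d14 replicate 1 (0.0536) or d14 replicate 3 (0.0905), nor with all probe sets averaged (0.175). SLC35E3 changed by 0.25 and 0.27 and was not called without e18 replicate 3 (adjusted p = 0.0655) or d14 replicate 3 (0.0563), nor against e20 (0.0914). Between d7 and d14 limma called 0 of the 15 other SLC35 genes, where 0.858% of all genes were called.

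Within the F subfamily, members thus went in different directions. SLC35F1 and SLC35F3 were lower at d14 than at e18, SLC35F5 was higher, and SLC35F6 differed by 0.18 (adjusted p = 0.0551), which was called, among other settings, with quantile normalization (adjusted p = 0.0154) and without e18 replicate 1 (0.0278) or 2 (0.0362). SLC35F2 took yet another course. It read 5.78 ± 0.34 at e18, 6.93 ± 0.34 at e20 and 8.00 ± 0.29 at hatch, and was back at 5.86 ± 0.93 on d3. The rises to e20 and to hatch and the fall of 1.81 from d1 to d3 were called (adjusted p = 0.0057, 0.0127 and 0.000302), while d14 and e18 differed by 0.53 (adjusted p = 0.162). A second probe set of SLC35F2, above background on 27 of 28 arrays, was level from e18 to e20, at 5.57 and 5.61. It stood at 6.94 at hatch and was already down at 5.76 by d1.

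Between e20 and d7, 8 of the 15 were called, 5 higher and 3 lower, where 64.0% of all genes were called, 25.4% higher and 38.7% lower. SLC35F5 rose by 2.57 ± 0.21 and SLC35F3 changed by −1.68 ± 0.23 there. When d14 was set against e20, 5 were called higher and 3 lower, where 67.6% of all genes were called, 27.2% higher and 40.4% lower. The 6 genes below the filter were SLC35A5, SLC35B1, SLC35D3, SLC35E4, SLC35F4 and SLC35G1. Of these SLC35G1 was above background on 8 of 28 arrays, SLC35A5 on 4 and the others on 0.

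**Figure D3:**
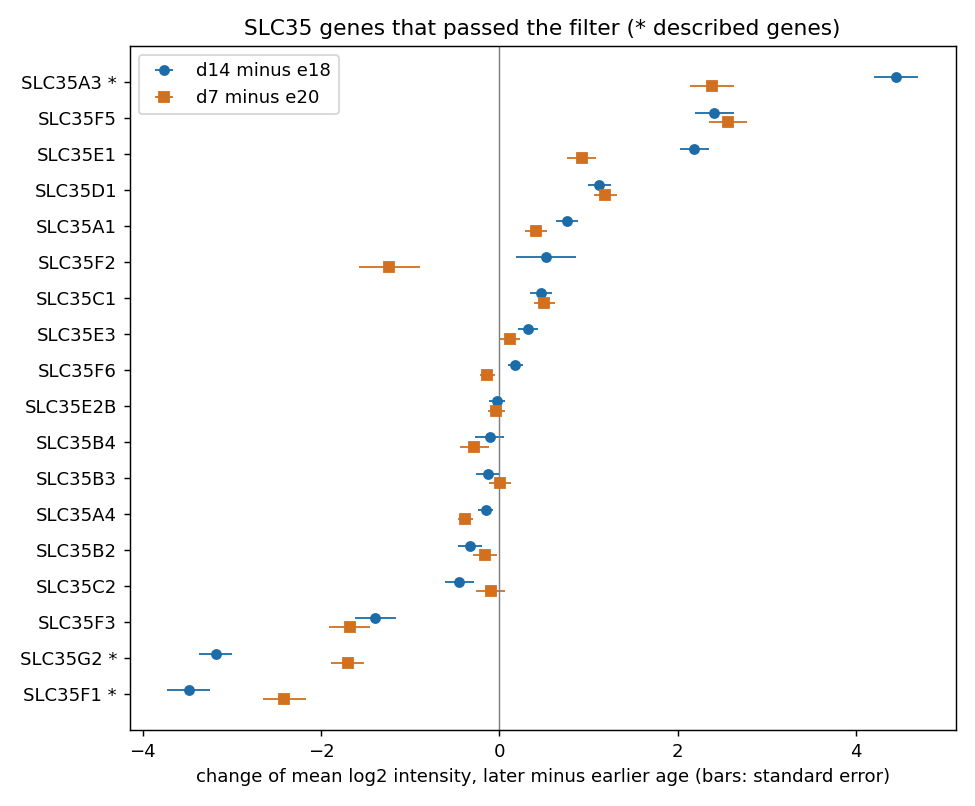
Change of mean log2 intensity with its standard error (horizontal axis) for the 18 SLC35 genes that passed the filter (vertical axis), from e18 to d14 (circles) and from e20 to d7 (squares), with asterisks at the 3 described genes. SLC35A3 lies at 4.45 and 2.39, SLC35F5 at 2.41 and 2.57, and SLC35F1, SLC35G2 and SLC35F3 lie lowest.

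Glycosylation genes were taken from 4 lists. These were for UDP-GlcNAc synthesis, N-glycan processing and branching, mucin-type O-glycan cores and GlcNAc extension, and capping with galactose, fucose and sialic acid. Many of their products use donors other than UDP-GlcNAc. Of the 105 genes listed, 84 were on the array and 53 passed the filter. Of these 29 rose and 13 fell between e18 and d14, that is 54.7% and 24.5%, where 33.2% and 40.5% of all genes did. With no filter, over all 84 genes on the array, 20 fell, and the share of all genes that fell was not computed there. The median change was 0.79. From e20 to d7, 26 rose and 9 fell, 49.1% and 17.0%, where 25.4% and 38.7% of all genes did. A weakly expressed gene passes the filter only through the ages at which it is high, so these shares cover measured genes only.

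Of 7 genes of UDP-GlcNAc synthesis, 4 rose and 1 fell between e18 and d14, where 33.2% of all genes rose and 40.5% fell. GFPT1, the first and rate-limiting enzyme of the hexosamine pathway, rose by 0.93 ± 0.13 and GNPNAT1, which acetylates glucosamine phosphate, by 1.20 ± 0.12 (limma adjusted p = 8.49e-07 and 2.49e-09). UAP1, which makes UDP-GlcNAc itself, rose by 1.12 ± 0.21 (adjusted p = 3.69e-05). The paralogues GNPDA1 and GNPDA2 run the first step backwards. GNPDA1, at 9.63 at e18 and 10.37 at d14, rose by 0.74 ± 0.24 (adjusted p = 0.00739). GNPDA2 went from 4.46 to 3.37, close to background, and changed by −1.09 ± 0.18, and against e20 it was higher at d14, by 0.07, and not called (adjusted p = 0.760). Set against e20, 2 genes of the list were higher at d14 and 1 was lower, where 27.2% and 40.4% of all genes were. GNPNAT1 was not called there (adjusted p = 0.0720). Between e20 and d7 GFPT1 and UAP1 rose and 1 gene of the list fell, AMDHD2, by 1.08. In that span 25.4% of all genes rose and 38.7% fell.

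In the list for N-glycan branching and Golgi mannosidases most genes rose. Of 12 genes tested 8 rose and 1 fell between e18 and d14, where 33.2% of all genes rose and 40.5% fell. The median change was 1.12. MGAT4D and MAN2A1 had the largest rises. MGAT4D, of the family of N-acetylglucosaminyltransferases IV, rose by 2.81 ± 0.14 (adjusted p = 5.78e-15), and MAN2A1, a mannosidase that trims the glycan before the second branch, by 2.61 ± 0.13 (adjusted p = 4.78e-15). MAN1C1 changed by −1.14 ± 0.11, and against e20 it was higher by 0.04 and not called (adjusted p = 0.737). Between e20 and d7, 8 rose and 1 fell, where 25.4% of all genes rose and 38.7% fell. With no filter 0 fell, and the share of all genes was not computed there.

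Of 14 genes in the list for mucin-type O-glycan cores and for extension with GlcNAc, 9 rose and 3 fell. Between these ages, e18 and d14, 33.2% of all genes rose and 40.5% fell. B3GNT7 and B3GNT5, which add GlcNAc to galactose ends, rose by 3.36 ± 0.27 and 3.04 ± 0.14 (adjusted p = 4.42e-11 and 7.94e-16). GALNT18, of the family that starts O-glycans, changed by −2.42 ± 0.14, and GCNT1, which makes the core 2 branch, by −0.61 ± 0.19 (adjusted p = 4.93e-14 and 0.00681). Set against e20, neither B3GNT7 (adjusted p = 0.0558) nor GCNT1 (0.281) was called, and with quantile normalization GCNT1 was not (0.0520). Of the 20 genes of galactosyl, fucosyl and sialyl capping, 8 were higher and 8 lower at d14 than at e18. That is near the shares of all genes, so nothing is read from these counts. ST3GAL5, the sialyltransferase that makes ganglioside GM3, rose by 2.25 ± 0.17, and GNE, the first enzyme of sialic acid synthesis, by 2.08 ± 0.19. B3GALT2 and ST3GAL1 were not above background at d14 and were at least 5.41-fold and 3.45-fold lower (adjusted p = 6.47e-15 and 1.37e-10), and B3GALT2 was not called between e20 and d14 (adjusted p = 0.103).

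**Figure D4:**
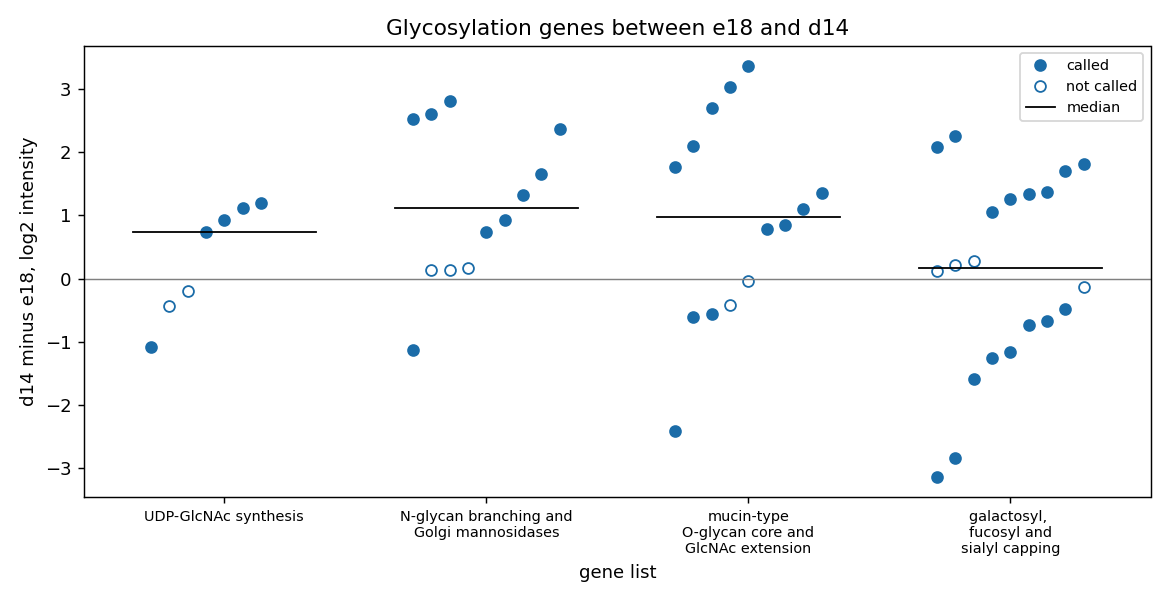
Change in log2 intensity from e18 to d14 (vertical axis) of each tested gene in 4 glycosylation lists (horizontal axis), filled where limma called it and open where it did not, with a line at each list's median. N-glycan genes have a median of 1.12 and genes of mucin-type cores and GlcNAc extension of 0.98, while the capping genes spread to both sides with a median of 0.17.

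Epithelial markers rose together with SLC35A3. Of 25 enterocyte markers 24 rose and 0 fell between e18 and d14, with a median of 4.09, where 33.2% of all genes rose and 40.5% fell, and their mean level went from 7.92 at e18 to 10.22 at e20, 11.36 at hatch and 11.96 at d14. The apolipoprotein APOA4 rose by 10.33 ± 0.22 and the peptidase DPP4 by 6.83 ± 0.22. Of 6 goblet cell markers 4 rose and 2 fell, and their mean level went from 5.75 to 8.92. The secreted goblet protein CLCA1 was at least 2935-fold higher at d14, FCGBP, a mucus protein, rose by 9.40 ± 0.16, and SPINK4 and TFF3 changed by −2.32 and −2.29. Relative to e20, SPINK4 was higher at d14, by 0.22, and not called (adjusted p = 0.250), TFF3 was not called either (0.636), and 0 goblet cell markers were lower. Between e20 and d7, 23 enterocyte markers and 4 goblet cell markers rose and 0 of either fell, where 25.4% of all genes rose and 38.7% fell. The part of these cell types in the rise of SLC35A3 was not tested.

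Neuronal markers fell together with SLC35F1 and SLC35G2. Of 21 enteric neuron and glia markers 19 fell and 1 rose between e18 and d14, with a median of −2.15, where 40.5% of all genes fell. Their mean level ran from 7.26 at e18 through 6.68 at e20, 5.98 at hatch, 5.74 at d1, 5.49 at d3 and 5.29 at d7 to 5.09 at d14. On single arrays it lay between 7.13 and 7.39 at e18 and between 5.01 and 5.23 at d14. The neurofilament NEFM changed by −4.34 ± 0.29 and CHRNA3, a nicotinic receptor subunit of autonomic neurons, by −4.22 ± 0.20 (adjusted p = 1.07e-12 and 1.52e-15). The glial marker S100B was the gene that rose, by 0.64, and was not called between e20 and d14 (adjusted p = 0.147). The glial factor SOX10 changed by −0.33, from 4.08 to 3.76 (adjusted p = 0.0234). NOS1, GAP43 and TH were not above background on any array. Between e20 and d7, 16 fell and 2 rose, where 38.7% of all genes fell and 25.4% rose.

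Markers of several other cells of the wall were also lower at d14 than at e18, where 40.5% of all genes fell and 33.2% rose. All 22 fibroblast and matrix genes tested fell between e18 and d14, with a median of −2.30, as did the 4 markers of interstitial cells of Cajal, the gut pacemaker cells, with a median of −1.93. COL14A1, a fibril-associated collagen, changed by −8.41 ± 0.22, FBN2, a fibrillin, by −3.83 ± 0.26, and the Cajal cell markers ETV1 and ANO1 by −2.96 ± 0.22 and −2.32 ± 0.18. Of 12 smooth muscle markers 11 fell, with a smaller median of −0.54, and MYOCD and SYNPO2 changed most, by −2.82 and −1.81, SYNPO2 not being called between e20 and d14 (adjusted p = 0.158). Of 11 endothelial markers 8 fell, among them EGFL7 and CDH5 by 2.25 and 2.07, and 1, VWF, rose, by 1.65. The mean level of the endothelial list went from 7.31 at e18 to 6.21 at hatch and was between 6.13 and 6.41 after that, and between e20 and d7 their median change was −0.16, against −0.12 over all genes. Of 24 DNA replication and mitosis genes 23 fell, with a median of −1.47, and the helicase subunits MCM2 and MCM5 changed by −2.62 and −2.35. The part of any of these cell types in the fall of SLC35F1 and SLC35G2 was not tested.

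Of 11 enteroendocrine markers 4 were higher and 3 lower at d14 than at e18, where 33.2% of all genes were higher and 40.5% lower. The other counts here between e18 and d14 are to be read against these shares too. CCK and PCSK1 rose by 2.71 and 1.48, and SCG3 and SCG5 changed by −2.58 and −1.01. Relative to e20, 2 enteroendocrine markers were higher and 5 lower at d14, where 27.2% of all genes were higher and 40.4% lower. Those shares hold for the other counts against e20 here. All 6 T cell markers tested, of 10 on the array, rose, with CD3E up by 4.87 and the granzyme GZMA at least 509.3-fold higher. A gene low at e18 passes the filter only through later ages at which it is high. The T cell count is thus set in part by the filter, and counts of other lists may be too. In the list for macrophages and heterophils, 7 of 11 genes were higher and 3 lower. C1QA and CD74 rose by 3.35 and 2.92, the heterophil defensin AvBD1 changed by −8.48, and the cathelicidin CATH1 was at least 301.1-fold lower. Relative to e20, AvBD1 was higher at d14 by 0.35, and not called, and CATH1 was not called (adjusted p = 0.0902). Of 11 exocrine pancreas markers 9 fell and 0 rose, and of 4 erythroid markers 2 fell and 1, CA2, rose, by 0.79. In the comparison of d14 with e20, 3 pancreas markers were called higher and 0 lower, and 3 erythroid markers higher and 1 lower. There the pancreas genes SYCN and CTRC were higher at d14, by 0.87 and 0.57, without a call, and the globins HBA1 and HBAD rose, by 2.05 and 1.89.

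Genes whose levels followed each of the 3 most closely were picked by Pearson r over the 28 arrays among all 8396 genes, as a description with no test, since the arrays share the 7 ages. Closest to SLC35A3 were EPCAM, an adhesion protein of epithelial cells (r = 0.97, from 13.81 at e18 to 15.12 at d14), CHMP1B, GGT2, UGT8 and the cytokine IL15, which went from 5.74 to 12.49. UGT8, a galactosyltransferase of glycolipid synthesis, went from 9.63 to 11.72.

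Closest to SLC35F1 was ELAVL4, an RNA-binding protein of neurons (r = 0.96), which went from 7.47 at e18 to 4.04 at d14. The others were FBN2, COL14A1, FERMT2, an integrin-binding protein, and TRAM2, all with r of 0.95. Closest to SLC35G2 was SYP, synaptophysin, a protein of synaptic vesicles (r = 0.98), which went from 6.47 to 2.95. LHFPL1, the polarity protein PARD3, S100A11 and UCHL1, a ubiquitin hydrolase abundant in neurons, followed with r of 0.97 or above. UCHL1 went from 10.67 at e18 to 6.77 at d14. ELAVL4 and UCHL1 were also in the list of neuronal markers above, and FBN2 and COL14A1 in the list of fibroblast and matrix genes.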

How the data were processed

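The deposited table gives linear-scale intensity values for each probe set, made by the authors with GCRMA per the submitters' processing notes; the sources used here state no version. GCRMA compresses weak signals, so changes close to background are understated. Left out were 153 control and reporter probe sets; of the rest 27168 have 1 symbol, 177 several and 11037 none. Here log2 was taken, the brightest probe set on average stood for each of 13009 symbols, and the 8396 genes with log2 over 4 in at least 4 arrays were tested. limma 3.58.1 (R 4.3.3) fitted the 7 age means jointly (21 residual degrees of freedom), with two-sided tests, Benjamini-Hochberg adjustment over all tested genes and calls under 0.05. The procedure was tested on simulated data. A group not above background on any of its arrays gives only a bound on a fold. Replicates were numbered in record order.

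The genes described and the lists were chosen with earlier results of these data known. Named are the 3 genes, up to 5 called rises and falls among the other SLC35 genes, up to 2 each per list, and the 5 genes most alike each of the 3. Other named genes were chosen after their values were seen. Alternatives were quantile normalization, no filter or one over 5, log2(value + 16), the mean of all probe sets, trend and robust eBayes, e20 in place of e18, each array left out, and, chosen after seeing the data, no e18 arrays and the second probe sets. No sequences were used here.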

Additional observations from a re-analysis of the deposited data

Results flagged for a closer look

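In 35 sets of 4 arrays (5 probe sets at 7 ages) 2 held an array far from the other 3 by Dixon's test, and chance alone picks out about 1 in 20. At hatch SLC35A3 read 7.43 on 1 array, while the next value was 8.09. At d7 the second probe set of SLC35F1 read 2.85 on 1 array, while the next was 3.21. Leaving out any single array, SLC35A3 was still called higher at hatch than at e20.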

How the results depend on the processing

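Calls of the 3 genes from e20 to hatch and, for SLC35F1, from d1 to d3 were kept under quantile normalization, both filters, log2(value + 16), the mean of all probe sets, trend and robust eBayes, without the e18 arrays and with any array left out. These settings reuse the same arrays for genes picked for their course, so kept calls are no independent support. With no filter, which raises the other SLC35 genes tested from 15 to 21 and the glycosylation genes from 53 to 84, 10 other SLC35 genes were higher at d14 than at e18, 17 were called over all ages and 20 glycosylation genes were lower. The shares of all genes called without the filter were not computed. The 6 SLC35 genes that it brings in were above background on at most 8 of 28 arrays. With log2(value + 16) on the same genes, the differences between d14 and e18 were 3.83 for SLC35A3, −2.33 for SLC35F1 and −2.56 for SLC35G2, and SLC35A3 was called from d1 to d3 at 0.60. With the mean of all probe sets, which includes those near background, they were 2.28, −1.96 and −2.17, and SLC35F1 was called from d3 to d7 at −0.32. Without the e18 arrays SLC35A3 was called from d1 to d3 at 0.62. With the second probe sets SLC35G2 differed by −2.85 between d14 and e18, SLC35F1 was called from d3 to d7 at −0.60, and SLC35G2 lost its calls from e20 to hatch (−0.46) and d3 to d7 (−0.51). With e20 in place of e18, GNPDA2 (0.066), MAN1C1 (0.045), SPINK4 (0.22), AvBD1 (0.35), SYCN (0.87), CTRC (0.57), HBAD (1.89) and HBA1 (2.05) turned upward. The causes were not tested.

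With single arrays left out, 1 to 4 other SLC35 genes were lower at d14 than at e18. SLC35A3 from d1 to d3 ranged from 0.50 to 0.75, SLC35F1 from d3 to d7 from −0.85 to −0.39, SLC35G2 from hatch to d1 from −0.52 to −0.37 and from d3 to d7 from −0.71 to −0.54. The difference in change between SLC35F1 and SLC35G2 ranged from −0.87 to −0.61 from e20 to d7, 0.68 to 0.86 from hatch to d1 and −1.50 to −1.19 from d1 to d3. No paired analysis was possible because the labels give no replicate numbers. Values near background limit SLC35F1 at d7 and d14.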
